A study of Ovis aries with 18 samples.

Results

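Genes of lipid droplet and fatty acid metabolism were followed across pools of sheep blastocysts whose sires had been fed with or without added methionine. The 10 genes were listed by name, for their importance in the trophectoderm of ruminants, and the rule uses no measured value. Of these 10, 6 were matched by symbol to the 20092 genes of the count table, namely PPARD, RXRA, FASN, ACSL3, FADS1 and FADS2. The other 4, PPARG, PLIN2, SCD and CPT1A, were not analysed here.

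Fatty acids are made from acetyl units, taken up from the surroundings or released from stored fat, and each must be joined to coenzyme A before it can be stored, elongated, desaturated or burned. Fat is stored as triacylglycerol in lipid droplets, which are abundant in the oocytes and early embryos of ruminants. The elongating ruminant blastocyst takes up fatty acids through its outer layer, the trophectoderm, where ligands derived from fatty acids and prostaglandins act on the nuclear receptors of the PPAR family, each of which binds DNA as a pair with an RXR receptor.

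Polypay rams received, before puberty, a basal diet (control) or the same diet with an added top-dress of 0.22% (1.5 g) rumen-protected methionine, which is coated so that rumen microbes do not degrade it. Superovulated Polypay ewes were bred to these rams, and the flushed blastocysts, labelled as inner cell mass and trophectoderm together, were combined by sire and dam into 12 pools of 5 embryos, 6 pools per diet. Control rams Ram410, Ram423 and Ram444 had 2 pools each, whereas methionine Ram424 had 4 pools and rams Ram498 and Ram511 had 1 pool each, so several pools have the same sire, and the ram is the unit that received the diet. The dam of a pool is not given in the labels, so p-values over pools measure the spread between pools only. In pooled embryos, fewer cells of a type and less RNA per cell cannot be told apart.

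The whole transcriptome of each pool was amplified ahead of library preparation. Total counts per pool ranged from 1173289 to 1554651 in the control pools (median 1399545) and from 1017847 to 2398589 in the methionine pools (median 1786688). Levels are given as CPM, counts scaled to a library total corrected by the trimmed mean of M-values (TMM), and a change is the log2 ratio of methionine to control fitted by edgeR. Since transcript lengths of the build used were not analysed here, levels are compared between pools within a gene and never between genes.

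Control pool Embryo444_2 and methionine pool Embryo511_1 stood apart from the other 10 pools. Their Spearman correlations with the other 10, across genes, were 0.526 to 0.626, against 0.806 to 0.955 among those 10. The summed level of the trophectoderm markers, 7 of 8 listed genes with counts, was 205 CPM in Embryo444_2 and 144 CPM in Embryo511_1, against 5181 to 14411 CPM in the other pools, and KRT8, a keratin that defines this layer, was at 116 and 42.6 CPM against 3893 to 11862 CPM. All 7 of these markers had their lowest values in those 2 pools. The inner cell mass markers, 3 of 5 listed genes with counts, summed to 68.0 and 131 CPM against 157 to 567 CPM, and the hypoblast markers, 4 of 5, to 233 and 276 CPM against 417 to 952 CPM. The genes behind each sum did not move together. POU5F1 was at 14.2 and 39.7 CPM against 132 to 521 CPM, but PRDM14 was highest in those pools, at 43.9 and 83.3 CPM. NANOG was within the range of the others. GATA6 was at 38.9 and 66.4 CPM against 249 to 801 CPM. GATA4 was highest in Embryo511_1, at 94.2 CPM, and PDGFRA in Embryo444_2, at 166 CPM. SOX17 was at most 5.71 CPM in any pool. Summed oocyte markers, 6 of 9 listed, reached 732 CPM in Embryo511_1 and 97.7 CPM in Embryo444_2, against 102 to 170 CPM, with the zona pellucida gene ZP3 at 410 CPM in Embryo511_1. Uterine epithelium markers, 4 of 5 listed, summed to 156 CPM in Embryo444_2 and 91.2 CPM in Embryo511_1 against 61.4 to 98.8 CPM, and blood markers, 2 of 4, to 127 and 256 CPM against 58.9 to 96.9 CPM. The 2 blood markers went opposite ways. PTPRC was at 121 and 254 CPM in those pools against 40.2 to 76.5 CPM. CD68 was at 6.37 and 1.98 CPM against 8.60 to 38.8 CPM. The cumulus cell list had 0 of 4 genes with counts. The comparison of each of the 6 analysed genes is therefore given with and without these 2 pools, as are the list medians and the other named genes whose change turned or whose unadjusted p crossed 0.05, and their part in the differences was not tested.

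None of the 6 genes differed between diets at a false discovery rate (FDR) of 0.05 in edgeR's quasi-likelihood test, where 0 of all 16488 tested genes were called (0%). At an unadjusted p under 0.05, 1 of the 6, FADS2, was lower in the methionine pools, against 7.92% of all tested genes, in either direction. Without pools Embryo444_2 and Embryo511_1, the FDR test called 1 of 16161 genes (0.00619%), MROH5, a name chosen after its values were seen and not a lipid gene of the lists, while FADS2 and ACSL3 had an unadjusted p under 0.05, against 11.9% of all genes. The median change of the 6 was 0.23 and 4 of them had positive values, whereas over all tested genes the median was 0.01 and 50.5% were positive. For 0 of the 6 did the pools of the diets separate without overlap, which was so for 0.352% of all tested genes.

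**Figure D1:**
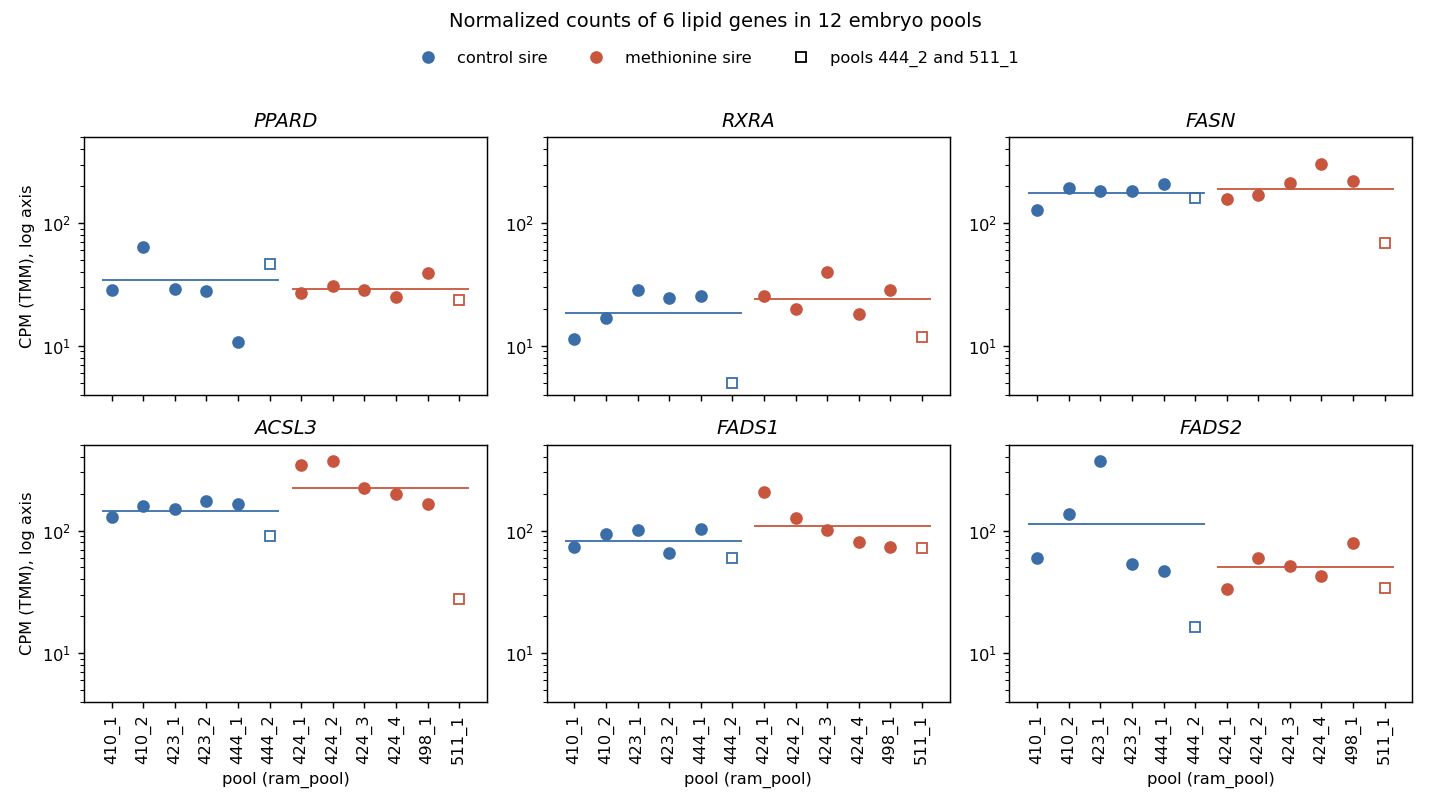
Level of the 6 analysed lipid genes in each pool (CPM, vertical axes, log scale), with control pools left (blue), methionine pools right (red), lines at the diet means, open squares for Embryo444_2 and Embryo511_1, and pools named by ram and pool number. The diets overlap in every gene, and the highest and lowest pools differ by 3.40-fold for FADS1 up to 22.7-fold for FADS2.

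PPARD encodes a nuclear receptor that binds fatty acid ligands and switches on genes of fatty acid oxidation. In control pools it was at 28.6 and 63.7 CPM (Ram410), 29.3 and 28.2 CPM (Ram423) and 10.6 and 46.0 CPM (Ram444). In methionine pools it was at 26.8, 30.6, 28.2 and 25.1 CPM (Ram424), 39.1 CPM (Ram498) and 23.8 CPM (Ram511). The methionine pools lay within the range of the control pools, whose highest and lowest values came from rams Ram410 and Ram444. The means were 34.4 ± 18.2 CPM and 28.9 ± 5.54 CPM (SD, n = 6 pools per diet), a change of -0.25 (SE 0.34, 95% interval -0.97 to 0.47, edgeR FDR 0.865). Counts were small, from 15 to 90 per pool, and the lowest, 15 in Embryo444_1, has an exact 95% Poisson interval of 8.40 to 24.7, which covers counting error only. Leaving out control pool Embryo410_2, the highest of all, brought the change to 0.019, a change of sign.

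RXRA encodes the retinoid X receptor alpha, the DNA-binding partner of PPAR receptors. Control pools held 11.3 and 17.0 CPM (Ram410), 28.6 and 24.4 CPM (Ram423) and 25.5 and 4.96 CPM (Ram444). Methionine pools held 25.3, 19.8, 40.2 and 18.2 CPM (Ram424), 28.3 CPM (Ram498) and 11.9 CPM (Ram511). The lowest control value was that of pool Embryo444_2 and the lowest methionine value that of pool Embryo511_1, and the diets overlapped over most of their range. Means were 18.6 ± 9.20 CPM in control and 24.0 ± 9.81 CPM in methionine pools (SD, n = 6 each), a change of 0.37 (SE 0.40, interval -0.48 to 1.21, edgeR FDR 0.829). Only 7 counts lay behind the lowest value, with an exact Poisson interval of 2.81 to 14.4, and 10 of the 12 pools had 15 counts or more. The change was 0.16 without Embryo424_3, 0.17 without Embryo444_2 and 0.72 without Ram423.

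FASN encodes fatty acid synthase, the enzyme that builds palmitate from acetyl and malonyl units. Its control pools were the closest together of these genes, at 127.9 and 191.9 CPM (Ram410), 184.3 and 181.6 CPM (Ram423) and 209.3 and 161.4 CPM (Ram444). Methionine pools spread further, at 158.2, 170.4, 211.0 and 301.8 CPM (Ram424), 221.0 CPM (Ram498) and 68.4 CPM (Ram511). The lowest and the highest pool of all were both methionine pools, Embryo511_1 and Embryo424_4, and the control pools lay between them. Mean levels were 176 ± 28.2 CPM and 188 ± 77.6 CPM (SD, n = 6 each), with a change of 0.10 (SE 0.31, interval -0.56 to 0.75, edgeR FDR 0.953). Without pool Embryo424_4 the change was -0.08, and without Embryo511_1 it was 0.27.

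ACSL3 encodes a long-chain acyl-CoA synthetase found on the endoplasmic reticulum and on growing lipid droplets, which activates fatty acids for storage. The control pools lay at 128.7 and 159.4 CPM (Ram410), 150.7 and 174.5 CPM (Ram423) and 164.6 and 90.6 CPM (Ram444). The methionine pools lay at 340.3, 372.5, 223.0 and 199.6 CPM (Ram424), 163.8 CPM (Ram498) and 27.8 CPM (Ram511). All 4 pools of Ram424 were above every control pool, while the single pool of Ram498 was within the control range and that of Ram511 was the lowest of the 12. The means of 145 ± 30.7 CPM and 221 ± 125 CPM (SD, n = 6 each) gave a change of 0.61 (SE 0.43, interval -0.29 to 1.51, edgeR FDR 0.736). ACSL3 was also the only one of the 6 for which pools Embryo444_2 and Embryo511_1 were both below every other pool, a pattern shared by 12.9% of all tested genes and by 19 of 101 other lipid genes (18.8%).

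Without those 2 pools, ACSL3 averaged 156 ± 17.3 CPM in 5 control pools and 260 ± 91.3 CPM in 5 methionine pools. The change was then 0.73 (SE 0.24, interval 0.23 to 1.23, edgeR unadjusted p = 0.0072, FDR 0.281), and an exact permutation test of that gene alone, two-sided over the 252 arrangements of the 10 pools, gave p = 0.0238. The same permutation test gave p between 0.190 (FADS2) and 0.810 (PPARD) for the other 5 genes. Of the 5 methionine pools in that fit, 4 are of Ram424, and the permutation test treats pools of the same ram as exchangeable. Its p-values were not adjusted for the number of genes tested. The 2 pools left out were chosen after seeing them, and both were below every other pool for ACSL3. Over all 12 pools the exact permutation test gave p = 0.686 for ACSL3. Leaving out Ram424 from the 12 pools turned the change to -0.58, and over the 3 rams per diet the mean log2 difference was -0.38 (exact permutation p = 1, the smallest possible being 0.1). The edgeR fit on counts summed per ram gave a change of 0.17 (SE 0.66, FDR near 1), and a limma fit that took rams as random effects gave -0.15 (SE 0.55), so the direction at the level of rams differed between fits. Averaged by ram, the control level was 144 CPM in Ram410, 163 CPM in Ram423 and 128 CPM in Ram444, and the methionine level was 284 CPM in Ram424, 164 CPM in Ram498 and 27.8 CPM in Ram511. These averages and the comparisons by ram include Embryo444_2 and Embryo511_1, the latter being the only pool of Ram511. Without Ram424 the methionine side is the single pools of Ram498 and Ram511. No fit by ram was run without Embryo444_2 and Embryo511_1.

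FADS1 encodes the delta-5 desaturase, which makes arachidonic acid, the precursor of many prostaglandins. The control pools measured 73.0 and 93.5 CPM (Ram410), 100.7 and 65.4 CPM (Ram423) and 102.2 and 60.2 CPM (Ram444). Methionine pools measured 204.5, 126.8, 101.6 and 80.6 CPM (Ram424), 72.9 CPM (Ram498) and 72.4 CPM (Ram511). Pools Embryo424_1 and Embryo424_2 were the only ones above all control pools, and the other methionine pools fell among the controls. The means were 82.5 ± 18.5 CPM and 110 ± 50.9 CPM (SD, n = 6 each), a change of 0.42 (SE 0.28, interval -0.19 to 1.02, edgeR FDR 0.732). It was -0.0055 without pools Embryo424_1 and Embryo424_2. By ram, the control means were close together, at 83.2, 83.1 and 81.2 CPM, against 128 CPM in Ram424 and 72.9 and 72.4 CPM in rams Ram498 and Ram511.

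Pools Embryo424_1 and Embryo424_2 were also the 2 highest for ACSL3, so 2 of the 6 genes had that pattern, against 9.03% of all tested genes and 12 of 101 other lipid genes (11.9%), among them ACSL1, ACSL4, AGPAT5, NR1H2, SLC27A4 and PTGES3. The 2 pools had the closest profiles of any pair within a diet (Spearman correlation across genes 0.955, others up to 0.895) and the smallest chi-square of counts per degree of freedom (3.16, against 7.84 to 42.8 in other pairs), which is set against counting error only and not against the spread of amplification. They were kept as 2 pools because the labels give them as such.

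FADS2 encodes the delta-6 desaturase, which acts before FADS1 on essential fatty acids. Control pools were at 60.2 and 136.0 CPM (Ram410), 370.0 and 53.3 CPM (Ram423) and 46.8 and 16.3 CPM (Ram444). Methionine pools were at 33.5, 60.0, 51.5 and 42.3 CPM (Ram424), 79.5 CPM (Ram498) and 33.7 CPM (Ram511). Control pool Embryo423_1 was 6.95-fold above the other pool of its ram, and the methionine pools lay within the control range. The means of 114 ± 132 CPM and 50.1 ± 17.7 CPM (SD, n = 6 each) were further apart than the medians of 56.7 and 46.9 CPM. The change was -1.18 (SE 0.55, interval -2.34 to -0.02), with edgeR unadjusted p = 0.0466 and FDR 0.620. Leaving out pool Embryo423_1 alone gave -0.32 (SE 0.41, edgeR FDR 0.828), whereas leaving out Ram444 gave -1.63. With counts summed per ram the change was -1.03 (SE 0.61, edgeR unadjusted p = 0.125), and with the ram as a random effect it was -0.52 (SE 0.66, limma unadjusted p = 0.438), so the unadjusted p under 0.05 was lost in both. On log2(CPM + 1), where a single high pool weighs less, the difference was -0.56 and the exact permutation test over all arrangements of the 12 pools, two-sided, gave p = 0.431.

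**Figure D2:**
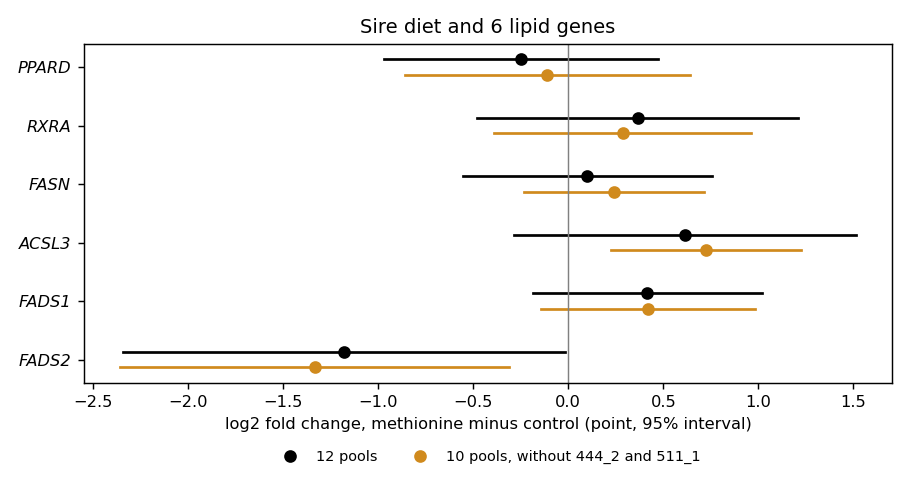
Change between diets of the 6 analysed lipid genes (log2 methionine over control, horizontal axis), with 95% intervals from edgeR, for 12 pools and for the 10 pools without Embryo444_2 and Embryo511_1. The FADS2 interval lies below 0 in both fits (-2.34 to -0.02 and -2.36 to -0.31), and the ACSL3 interval lies above 0 only with 10 pools.

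Over the 10 pools without Embryo444_2 and Embryo511_1, the change was -0.11 (SE 0.35) for PPARD, 0.29 (SE 0.32) for RXRA, 0.24 (SE 0.22) for FASN and 0.42 (SE 0.27) for FADS1, with edgeR FDR between 0.550 and 0.930. FADS2 changed by -1.33 (SE 0.48, edgeR FDR 0.323) over those pools. Exact permutation tests of log2(CPM + 1) over the 12 pools gave p between 0.277 and 0.972 for these 6 genes, and over the 3 rams per diet p between 0.6 and 1. By coefficient of variation over the 12 pools, FADS2 varied most (117%), then ACSL3 (52.2%), RXRA (44.6%), PPARD (41.5%), FADS1 (40.8%) and FASN (30.7%). The median over all tested genes was 42.2%. Counting error alone would give from 5.75% for ACSL3 to 17.3% for RXRA, and the spread added by amplification was not measured.

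Other genes of the same pathways were taken from lists of 127 genes, of which 102 had counts and 101 were tested. Of these, 0 passed the FDR in edgeR's quasi-likelihood test over 12 pools, and none did so under the likelihood-ratio test or DESeq2. At an unadjusted p under 0.05, 2 were higher and 5 lower in methionine pools, or 6.93% against the 7.92% of all tested genes. Without pools Embryo444_2 and Embryo511_1, 5 were higher and 7 lower, or 11.9% against 11.9%. With the ram as a random effect, 0 of them had an unadjusted p under 0.05 (limma), against 2.15% of all tested genes. With counts summed per ram 5 of the 101 did (edgeR), against 3.47% of all tested genes. The median change was 0.01 (-0.04 over 10 pools), and 52 of the 101 values were positive.

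**Figure D3:**
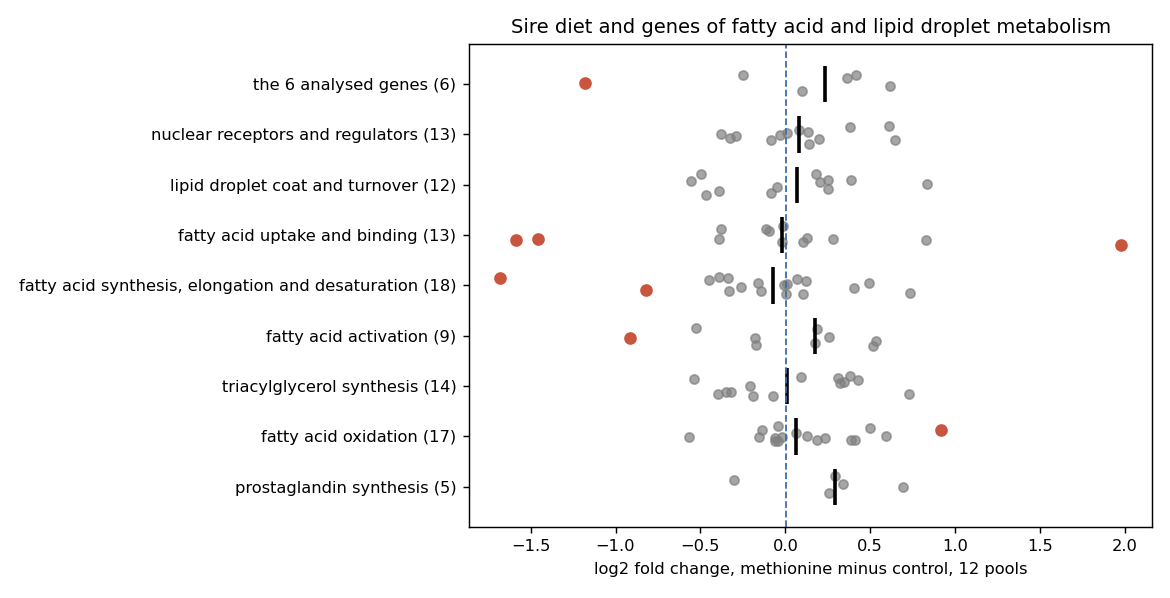
Change between diets (log2 methionine over control) of every tested lipid gene, one row of points for each list with the number tested in brackets, over 12 pools, where black bars are list medians, the dashed line is the median of all tested genes and red points have an unadjusted p under 0.05. The medians of the lists other than the 6 analysed genes lie between -0.08 (synthesis, elongation and desaturation) and 0.29 (prostaglandin synthesis), and no gene has an FDR under 0.05.

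Among 13 regulators of lipid genes, 0 had an unadjusted p under 0.05 over 12 pools, and the list median was 0.08, or -0.08 over the 10 pools without Embryo444_2 and Embryo511_1. Those named for their counts were SREBF2, the regulator of cholesterol synthesis (control median 296 CPM, methionine 343 CPM), PPARGC1B, a coactivator of nuclear receptors (285 and 305 CPM), and SCAP, the escort of SREBP proteins (145 and 102 CPM), with edgeR FDR of 0.781 to 0.999. The change of SREBF2 was 0.0077 over 12 pools and -0.08 over 10. NR1H2, the liver X receptor beta, reached an unadjusted p under 0.05 only with 10 pools, with a change of 0.76 (SE 0.28, edgeR FDR 0.327), against 0.61 (SE 0.29, FDR 0.638) over 12.

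Of 19 genes of the droplet coat and its turnover, 12 were tested and 0 had an unadjusted p under 0.05, with a list median of 0.07, or 0.01 over 10 pools. PLIN3, a droplet coat protein of many tissues, ran from 55.2 to 371 CPM in control pools (median 241) and from 32.7 to 502 CPM in methionine pools (median 303), the lowest value of each diet coming from Embryo444_2 and Embryo511_1. AUP1, which sits on the droplet surface, was likewise lowest in those pools, at 18.4 and 6.94 CPM against 83.7 to 191 CPM in the other 10. LDAH, a droplet-associated hydrolase, went the other way in Embryo511_1, where it was highest, at 218 CPM against 75.5 to 157 CPM in the 10 pools, and it was at 86.4 CPM in Embryo444_2. Its change was 0.25 over 12 pools and -0.02 over 10 (edgeR FDR 0.833 and 0.981).

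In fatty acid uptake and binding, 3 of 13 tested genes had an unadjusted p under 0.05 (23.1%, against 7.92% of all genes), and 3 did over 10 pools (against 11.9%), with a list median of -0.02, or -0.06 over 10 pools. SLC27A3, a fatty acid transport protein, ran from 14.8 to 126 CPM in control pools (median 37.7) and from 6.94 to 24.1 CPM in methionine pools (median 18.2). The ranges overlapped, and the change was -1.59 (SE 0.47, edgeR FDR 0.584) over 12 pools and -1.55 (SE 0.47, FDR 0.264) over 10. FABP2, an intestinal fatty acid binding protein, was low throughout, from 1.42 to 24.8 CPM in controls and from 0 to 7.36 CPM in methionine pools, with a change of -1.46 (edgeR FDR 0.607), or -1.42 (FDR 0.345) over 10 pools. FABP6, the bile acid binding protein of the ileum, had its highest value, 137 CPM, in pool Embryo511_1, and its change of 1.98 (edgeR FDR 0.585) became 0.75 (FDR 0.591) without Embryo444_2 and Embryo511_1. DBI, an acyl-CoA binding protein, changed by -0.02 (edgeR FDR 0.995), and SLC27A4, a fatty acid transport protein, by 0.83 (SE 0.48, FDR 0.682), or 0.83 (SE 0.36, FDR 0.384, unadjusted p under 0.05) over 10 pools. SLC27A4 was highest in Embryo424_1 and Embryo424_2, at 149 and 142 CPM against at most 64.6 CPM in the others.

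In synthesis, elongation and desaturation, 18 of 23 genes were tested, with a median change of -0.08, or -0.03 over 10 pools. Over 12 pools 2 of the 18, both elongases of very long chains, had an unadjusted p under 0.05 (11.1%, against 7.92% of all genes). Over 10 pools 2 of the 18 had one (11.1%, against 11.9% of all genes), ELOVL3 but not ELOVL4 among them. ELOVL3 changed by -1.68 (SE 0.71, edgeR FDR 0.607), or -1.62 (SE 0.76, FDR 0.414) over 10 pools, with control pool Embryo423_1, also the highest for FADS2, at 187 CPM against a control median of 19.9 CPM and a methionine median of 9.52 CPM. ELOVL4 changed by -0.82 (SE 0.37, FDR 0.615) and by -0.43 (SE 0.32, FDR 0.618) without pools Embryo444_2 and Embryo511_1, Embryo444_2 being its highest pool at 75.0 CPM. The elongases ELOVL1 and ELOVL6, which extend saturated chains, were at 24.8 and 52.4 CPM in Embryo444_2 and at 16.9 and 39.7 CPM in Embryo511_1, against 223 to 544 CPM and 241 to 463 CPM in the other 10 pools. FADS3, the next gene beside FADS2 in the order of the RefSeq assembly ARS-UI_Ramb_v3.0, was at 20.5 and 8.92 CPM in those pools against 65.3 to 246 CPM in the others, whereas FADS1 was at 60.2 and 72.4 CPM against 65.4 to 205 CPM. Pool Embryo423_1 was not raised for the 3 FADS genes together, since FADS3 was at 177 CPM and FADS1 at 100.7 CPM there.

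**Figure D4:**
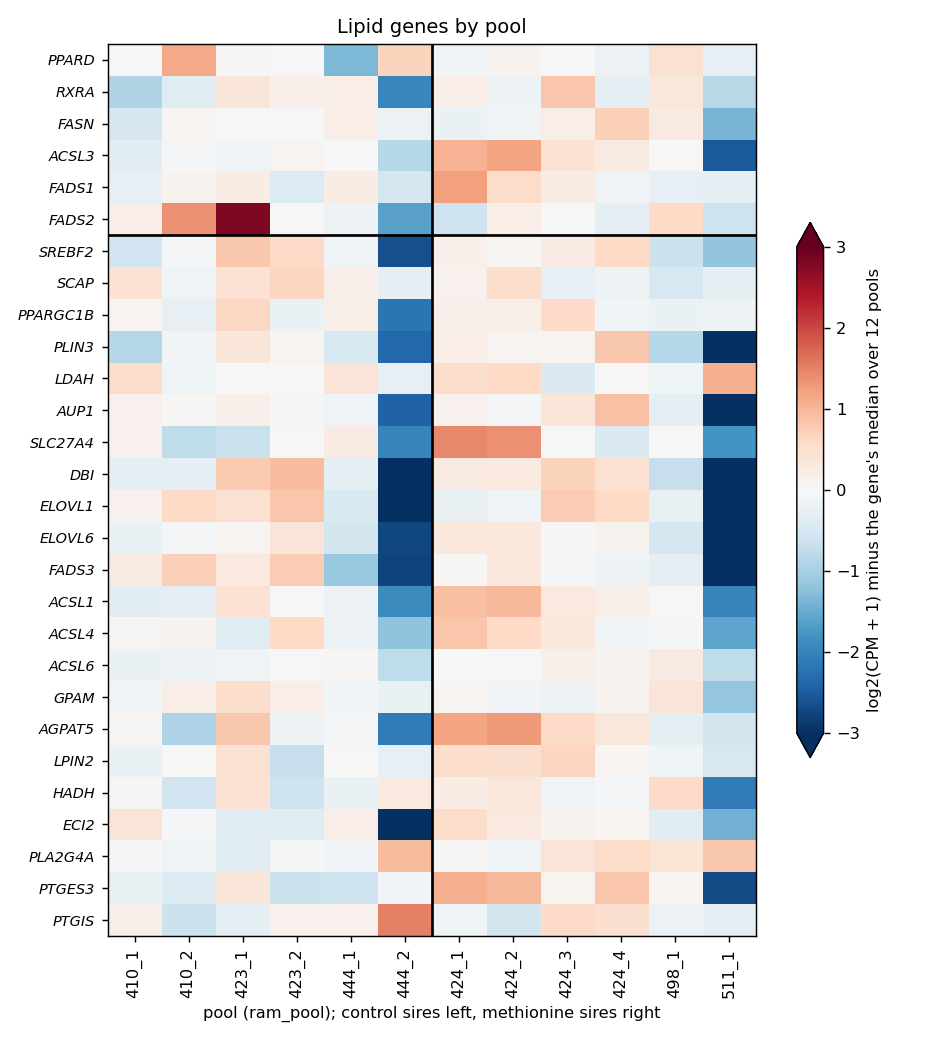
Level of the 6 analysed and other named lipid genes in each pool relative to the median of the 12 pools (log2(CPM + 1), colour, values beyond the ends of the scale drawn at the end colours), with genes in rows by role and pools in columns, control left and methionine right. ELOVL1, ELOVL6, FADS3 and PLIN3 are low in both Embryo444_2 and Embryo511_1, while LDAH is high in Embryo511_1 and PTGIS is high in Embryo444_2.

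The 9 other genes of fatty acid activation, the step of ACSL3, had a median change of 0.18, which turned to -0.08 over 10 pools, and 1 unadjusted p under 0.05 (11.1%, against 7.92% of all genes). Over 10 pools 3 of the 9 had one (33.3%, against 11.9% of all genes). The gene over 12 pools was ACSBG1, an acyl-CoA synthetase of brain and testis, at 13.5 to 53.4 CPM in controls and 5.10 to 20.6 CPM in methionine pools, with a change of -0.91 (SE 0.40, edgeR FDR 0.608), or -0.98 (SE 0.40, FDR 0.359) over 10 pools. ACSL1, the main form in fat and liver, changed by 0.53 (SE 0.43, edgeR FDR 0.758) over 12 pools and by 0.54 (SE 0.24, FDR 0.390) over 10, and ACSL4, which prefers arachidonic acid, by 0.26 and 0.28. ACSL6 changed by 0.19 (SE 0.23, edgeR FDR 0.848). ACSL1, ACSL4 and ACSL6 all shared the low values of ACSL3 in Embryo444_2 and Embryo511_1, at 43.9 and 41.6, 78.6 and 60.5, and 67.3 and 67.4 CPM. With 10 pools ACSS2, which activates acetate, had a change of -0.61 (SE 0.28, edgeR FDR 0.410), against -0.53 (SE 0.28, FDR 0.663) over 12.

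Triacylglycerol synthesis, with 14 of 16 genes tested, had no unadjusted p under 0.05 over 12 pools and a median change of 0.01, or -0.01 over 10 pools. AGPAT5, an acyltransferase of that path, changed by 0.73 (SE 0.43, edgeR FDR 0.690), LPIN2, a phosphatidate phosphatase, by 0.31 (SE 0.26, FDR 0.777), and GPAM, the mitochondrial first step, by -0.19 (SE 0.26, FDR 0.865). AGPAT1 changed by 0.32 over 12 pools and by -0.61 (SE 0.24, FDR 0.353) over 10. Its highest pool was Embryo511_1, at 241 CPM, and its lowest Embryo444_2, at 27.6 CPM.

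In fatty acid oxidation, 17 of 21 genes were tested, with a median change of 0.07, which turned to -0.05 over 10 pools. DECR1, which prepares unsaturated chains for mitochondrial oxidation, ran from 6.43 to 14.8 CPM in controls and from 8.47 to 34.7 CPM in methionine pools, with a change of 0.92 (SE 0.41, edgeR FDR 0.615). Its highest pool was Embryo511_1, and over 10 pools the change was 0.74 (SE 0.42, edgeR unadjusted p = 0.0946, FDR 0.500). ECI2 and HADH, of mitochondrial oxidation, changed by 0.23 and 0.07 (edgeR FDR above 0.9), or 0.15 and 0.34 (FDR 0.828 and 0.583) over 10 pools.

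Of 8 genes of prostaglandin synthesis, 5 were tested and 4 had positive changes, with a median of 0.29, or 0.46 over 10 pools. PTGES3, listed as a prostaglandin E synthase and also known as the Hsp90 co-chaperone p23, had a median of 19.7 CPM in control pools and 35.2 CPM in methionine pools, with a change of 0.69 (SE 0.44, edgeR FDR 0.710), or 0.94 (SE 0.30, FDR 0.280) with 10 pools. It was highest in pools Embryo424_1, Embryo424_2 and Embryo424_4, at 52.6, 49.3 and 44.2 CPM. PTGIS, the prostacyclin synthase, was highest in Embryo444_2, at 177 CPM against 39.0 to 91.8 CPM in the other 10 and 50.6 CPM in Embryo511_1. Its change was -0.30 over 12 pools and 0.17 over 10 (edgeR FDR 0.835 and 0.840). PLA2G4A, which frees arachidonic acid from membranes, changed by 0.26 (SE 0.28, edgeR FDR 0.826), or 0.40 (SE 0.23, FDR 0.507) over 10 pools.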

How the data were processed

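Gene expression was measured by single-end RNA sequencing of 12 pools of 5 blastocysts. The authors trimmed reads with Trimmomatic and aligned them to Oar_rambouillet_v1.0 with STAR, whose gene counting gave the deposited counts, whole numbers per gene that were not normalized. The strand setting of the counts is not given in the sources used here, so reads of PPARD and FADS1 cannot be told apart from those of the non-coding genes that RefSeq places over them. The sources used here describe no identifiers on the amplified molecules.

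Of 20092 genes, the 16488 that reached a count of 15 in over 3 pools were fitted for diet with edgeR 4.0.16 (normalization by TMM, quasi-likelihood test, Benjamini-Hochberg FDR) under R 4.3.3. The SE is the size of the log2 change divided by the square root of F. Alternatives used the likelihood-ratio test, DESeq2 1.42.0 and limma 3.58.1, and exact permutations used scipy 1.17.1. Pool numbers count the pools of a ram and pair no samples. Named genes were all listed members, then per list the 3 of highest mean CPM and those with an unadjusted p under 0.05, except that some are not reported here. Members and lists were chosen with earlier results of these data known, and the choice to leave out pools Embryo444_2 and Embryo511_1 was made after seeing them. Symbols and gene order came from RefSeq (ARS-UI_Ramb_v3.0). The sperm methylation table was not used here.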

Additional observations from a re-analysis of the deposited data

Results flagged for a closer look

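FADS2 in control pool Embryo423_1, at 370 CPM, stood apart from the other 5 control pools, of which the nearest was at 136 CPM. The gap was 0.662 of the range of the control pools, above the critical value of Dixon's test for 6 samples, 0.625. It was the only such pool among the 12 groups examined, the 6 genes in each diet. The nominal rate of such pools by chance is about 5% of groups, which holds for normally distributed values. The test used CPM rather than log values, and whether that rate holds for them was not tested.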

How the results depend on the processing

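None of the 6 genes reached an FDR of 0.05 under any of the 26 alternatives, and from 0 to 2 had an unadjusted p under 0.05. The share of all tested genes with such a p ran from 2.15% to 11.9% over those alternatives. The count of 2 came only without pools Embryo444_2 and Embryo511_1, where the share was 11.9%. Of 156 changes recomputed, 146 kept their direction and 10 turned, those of RXRA and FADS2 never. Rams Ram498 and Ram511 have 1 pool each, so leaving out either ram repeats leaving out its pool. The repeated values, all in the main direction, are counted again in the 146. ACSL3 turned to -0.15 with the ram as a random effect (0.17 with pools summed per ram), FASN to -0.20 there and to -0.041 with pools summed per ram, and FADS1 to -0.0055 without pools Embryo424_1 and Embryo424_2. Leaving out a pool or ram gave -0.58 to 0.84 for ACSL3, -0.18 to 0.51 for FADS1, -0.27 to 0.27 for FASN and -0.44 to 0.019 for PPARD, where the lowest values of the first 3 came without Ram424 and the highest without pool Embryo511_1. Without Ram424 the methionine side is the single pools of Ram498 and Ram511, the latter being Embryo511_1. The cause was not tested. The changes of RXRA ran from 0.14 (without Ram424) to 0.72 (without Ram423) and those of FADS2 from -1.63 to -0.32. Over all genes the likelihood-ratio test called 5 (C20H6orf136, CERS1, HRC, LOC114111604 and UNC93A, named after their values were seen) and DESeq2 16 at FDR 0.05, none of them in the lipid lists, against 0 in the quasi-likelihood test, which had 1306 at an unadjusted p under 0.05. With pools summed per ram 572 genes had an unadjusted p under 0.05, and with the ram as a random effect 355. No paired analysis was possible because the pool numbers count the pools of a ram and are not shared between diets. The order of the genes by level and methylation at their promoters in sperm were not run, since no gene lengths or positions of the build were used. Total counts of 1017847 to 2398589 limit PPARD and RXRA most.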

Other observations

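The count ratio of FADS2 to FADS1, the desaturases of the first and the later step of one pathway, was 0.825 and 1.45 in the pools of control Ram410, 3.67 and 0.814 in those of Ram423 and 0.458 and 0.271 in those of Ram444. In methionine pools it was 0.164, 0.473, 0.507 and 0.524 for Ram424, 1.09 for Ram498 and 0.466 for Ram511. The lowest ratio, in Embryo424_1, came with the highest FADS1 level, and the highest, in Embryo423_1, with the highest FADS2 level.

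Of the 883 protein-coding sheep genes that have a curated (NM) transcript record in the RefSeq table, 6 (0.68%) were matched to the genes analysed here, against 17748 of the 20417 other protein-coding genes (86.9%). PPARG, PLIN2, SCD and CPT1A each have such a record, and the 6 lipid genes with counts do not. Why the shares differ was not tested.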
